A study of Mus musculus with 16 samples.

Results

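The opposite ends of the Nodal/Activin signalling gradient were compared in mouse embryonic stem (ES) cells: 4 cultures given Activin, for high signalling, were set against 4 cultures given the receptor inhibitor SB-431542 (SB), for blocked signalling. The groups were taken from the sample labels, and these 8 of the 16 arrays of the series were compared over all 24606 probes of an Illumina mouse bead array, paired by passage. All 16 cultures were of the HPRT- E14TG2a line, and all, the Activin cultures included, first spent 6 h in serum-replacement (KSR) medium with 10 µM SB. For the next 18 h the Activin cultures received 25 ng/ml Activin and the SB cultures 10 µM SB. By the authors' methods the SB stock was in DMSO and was diluted 1 in 5000, so the SB cultures also held vehicle. No vehicle is described for the Activin cultures, so by this account the ends differed in vehicle as well. The remaining 8 arrays serve as the midpoint of the gradient, which the authors call endogenous signalling. Of these, 4 cultures received DMSO vehicle diluted 1 in 5000 and 4 received unsupplemented KSR medium. Each group held 1 culture at each of passages 20, 21, 23 and 24, given here as replicates 1 to 4 and always in that order. Replicates are thus passages of 1 line, and p-values reflect how these cultures varied.

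Activin and Nodal are TGFβ-family ligands that assemble type II and type I receptor kinases, and the type I receptors phosphorylate Smad2 and Smad3. These join Smad4, enter the nucleus and act on target genes with partners such as Foxh1. Nodal, unlike Activin, also needs the co-receptor Cripto, encoded by Tdgf1. The pathway induces its own ligand Nodal and its own secreted antagonists Lefty1 and Lefty2, so its targets are in part its regulators. BMP ligands signal through other Smads, share Smad4, and have the Id genes as classical targets. SB blocks the type I receptor kinases for Activin, Nodal and TGFβ, but not those for BMPs.

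Levels are given as log2 intensity after background correction and quantile normalization, and a difference is Activin minus SB, so that a positive value means higher with Activin. A gene passed when its adjusted p was under 0.05 in a limma model of the 4 groups and the passage over all 16 arrays, with Benjamini-Hochberg adjustment over all probes. Errors are SDs over 4 cultures unless named as SE. The background level of an array was the 95th percentile of its 1192 probes for odorant, pheromone and taste receptor genes, and a gene whose dimmer group had no array over that level is given with a lower bound of its fold, written as "at least". These are bulk measurements, so fewer cells of a type and less RNA per cell cannot be told apart.

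The arrays of both ends were alike in quality, with a mean intensity of 607 to 729 with Activin and 573 to 691 with SB, and with 9900 to 10439 and 10008 to 10250 probes above background. Along the first principal component (15% of the variance) the 4 arrays of passage 24 lay at 8.62 to 9.23 and the other 12 at 1.61 or lower. Along the second (12.4%) the SB arrays lay at -9.75 to -7.22, and the others at -0.781 or higher. The label of ES cells was borne out: Pou5f1, Nanog, Sox2, Zfp42 and Sall4 were above background on all 8 arrays, and their summed linear intensity was 23130 to 27670 with Activin and 21200 to 25580 with SB. None of these 5 markers passed the test. Of 8 fibroblast markers, 7 were above background on none of the 8 arrays (the exception was Thy1), and the neuroectoderm markers Sox1, Pax6 and Hes5 were also above background on none. Of 6 primitive endoderm markers, Gata4 and Dab2 were above background on all 8 arrays, and Sox17 and Sox7 on none. Gata6 was above it on 3 of 4 Activin and 4 of 4 SB arrays, and Pdgfra on 2 of 4 in each group. The summed intensity of the 6 went with passage: 914, 980, 2063 and 2231 with Activin, and 1127, 1076, 2325 and 2825 with SB. Dab2 was the brightest of the 6 and had the largest SDs (1.31 with Activin, 1.33 with SB), so it weighed most in this sum. The sum was higher at passages 23 and 24 in both groups, and within each passage it was higher with SB. Its part in the differences below was not tested.

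Between the ends 438 of 24606 probes passed (1.78%), 240 higher with Activin (0.975%) and 198 lower (0.805%). They named 347 of 15967 genes (2.17%), of which 181 were higher (1.13%) and 166 lower (1.04%). Of the 15967 genes, 8242 were above background on at least 1 array of either end. When only the 10735 probes above background on 4 or more arrays were tested, 629 passed. The 2.17% is thus a low yardstick for those lists below whose members were mostly above background. Among the 438 probes, 344 had all 4 Activin arrays on 1 side of all 4 SB arrays (4.58% of all probes did) and 432 had the same sign at 4 of 4 passages (18.2% of all probes did). The Activin and SB values behind these shares also chose the probes, so the shares are no further support. Of the 116 probes with more than a 1.5-fold difference, all of which passed, 84 were higher with Activin and 32 lower, so the large differences lay mostly on the side of Activin while the smaller ones were spread over both. Without passage in the model 221 probes passed (0.898%), and without the arrays of passage 20 or of passage 23 the count was 282 or 256. Against the midpoint fewer probes passed: 9 for Activin minus DMSO (0.0366%) and 150 for SB minus DMSO (0.61%), comparisons that share the Activin or SB arrays with the one between the ends and share the DMSO arrays with each other. For DMSO minus KSR medium 0 probes passed.

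**Figure D1:**
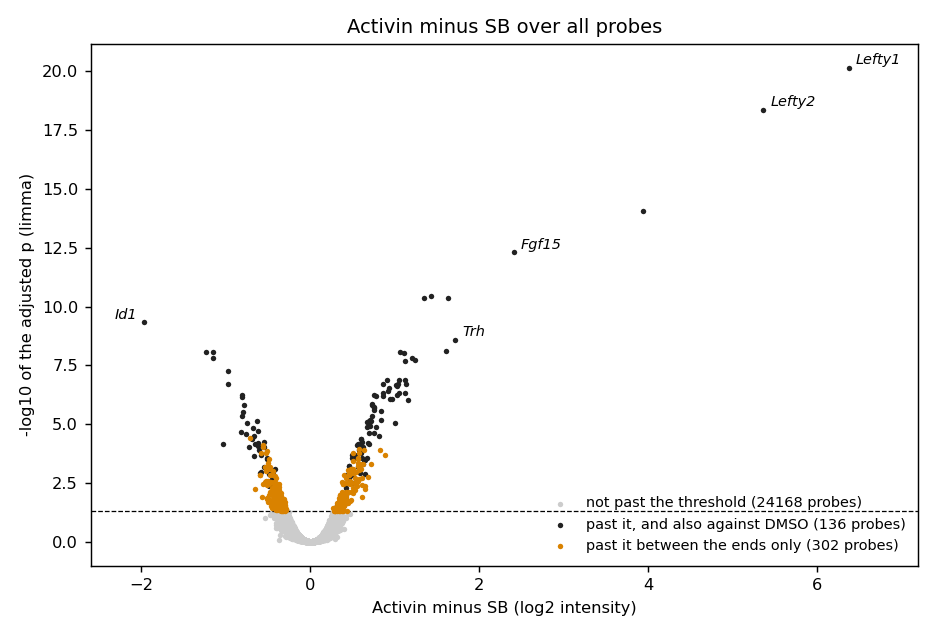
Difference between Activin and SB (x axis, log2 intensity) against the negative log10 of the limma adjusted p (y axis) for all 24606 probes. The dashed line marks an adjusted p of 0.05; black points also passed in a comparison with DMSO (136 probes), and orange points passed between the ends only (302 probes), at log2 differences no larger than 0.89 in size.

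The antagonists of the pathway held the largest differences. Lefty1, which encodes a secreted inhibitor of Nodal, was at 13.33, 13.45, 13.00 and 13.53 with Activin and 6.91, 7.34, 6.73 and 6.83 with SB, and at 12.05, 12.56, 11.48 and 12.06 with DMSO and 12.02, 12.21, 11.49 and 11.98 in KSR medium. All Activin arrays lay above all SB arrays by a wide margin, and the DMSO and KSR arrays lay between them, nearer to Activin. The difference was 83-fold (log2 difference 6.38, SE 0.10, adjusted p = 7.20e-21), with 1 of the 4 SB arrays above background, and still 70.1-fold when the other 3 were raised to the dimmest level above background on their arrays. Lefty2, its neighbour on chromosome 1 and a related inhibitor, was at 11.66, 12.02, 11.49 and 12.07 with Activin and 6.49, 6.56, 6.26 and 6.50 with SB, against 10.06, 10.81, 9.75 and 10.40 with DMSO and 10.03, 10.50, 9.54 and 10.26 in KSR medium. None of the SB arrays was above background, and Lefty2 was at least 25.2-fold higher with Activin (log2 difference 5.36, SE 0.10, adjusted p = 4.40e-19). On a scale where the SB mean is 0 and the Activin mean is 1, the place of the midpoint was 0.80 for DMSO and 0.78 for KSR medium for Lefty1, and 0.71 for DMSO and 0.68 for KSR medium for Lefty2. Pmepa1, which encodes a membrane protein that holds back Smad2 and Smad3, was 1.66-fold higher with Activin, at 7.95 ± 0.13 against 7.22 ± 0.09 with SB (log2 difference 0.73, SE 0.08, adjusted p = 4.61e-06).

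Of the 15 measured inhibitors of the pathway, 4 were higher (Lefty1, Lefty2, Pmepa1 and Ski), 0 were lower and 11 did not pass, with a median difference of 0.16, against -0.0016 over all genes, of which 2.17% passed. Ski, the gene of a co-repressor that binds Smads, had the smallest of these differences (log2 difference 0.36, SE 0.08, adjusted p = 0.0245), and it lost its call in 14 of 24 alternative settings, among them the model without passage. Smad7, the inhibitory Smad of the pathway, was above background on none of the arrays. All gene lists, here and below, were chosen with earlier results of these data known, so their shares are no independent support.

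Of 7 measured ligand genes, 2 were higher, Nodal and Gdf1, and 0 were lower (28.6% passed, against 2.17% of all genes). Nodal was at 11.58, 11.57, 11.41 and 11.42 with Activin and 10.87, 10.68, 10.56 and 10.45 with SB. The groups did not overlap, although every array of both groups was bright, and Nodal was 1.81-fold higher with Activin (log2 difference 0.86, SE 0.08, adjusted p = 4.46e-07). Its DMSO and KSR arrays, at 11.19 ± 0.18 and 11.21 ± 0.10, stood at places of 0.64 for DMSO and 0.67 for KSR medium. Gdf1, a ligand gene that acts with Nodal in the embryo, was 1.41-fold higher (log2 difference 0.49, SE 0.07, adjusted p = 0.000281). Of 9 receptor and co-receptor genes only Tdgf1 passed (11.1%). It was at 8.96, 9.07, 8.42 and 9.10 with Activin and 7.62, 7.78, 7.46 and 8.18 with SB, and at 8.77, 8.87, 8.43 and 8.93 with DMSO and 8.56, 9.03, 8.54 and 8.73 in KSR medium. Here the midpoint lay with Activin and the SB arrays stood alone, at places of 0.88 for DMSO and 0.85 for KSR medium. The difference was 2.19-fold (log2 difference 1.13, SE 0.10, adjusted p = 1.87e-07), while a second, dimmer probe for Tdgf1 did not pass and had a difference of -0.0033.

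Among 7 Smads and nuclear partners, Smad3 alone passed (14.3%, against 2.17% of all genes) and was lower with Activin. It was at 8.72, 8.96, 9.00 and 8.94 with Activin and 9.41, 9.38, 9.44 and 9.38 with SB, against 9.03, 9.11, 9.29 and 9.23 with DMSO and 9.08, 9.14, 9.33 and 9.08 in KSR medium. The 4 SB arrays lay close together and above every Activin array, and the midpoint arrays lay in the middle, at places of 0.47 for DMSO and 0.48 for KSR medium. The difference was 1.41-fold (log2 difference -0.49, SE 0.07, adjusted p = 0.000286), and it passed in every one of 24 alternative settings, yet neither step from the midpoint passed on its own (adjusted p = 0.528 for Activin minus DMSO and 0.251 for SB minus DMSO). Smad2, the other receptor-regulated Smad of the pathway, differed by -0.01 (SE 0.07), Smad4 by -0.08 (SE 0.07) and Foxh1 by 0.02 (SE 0.11), and these 3 did not pass.

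**Figure D2:**
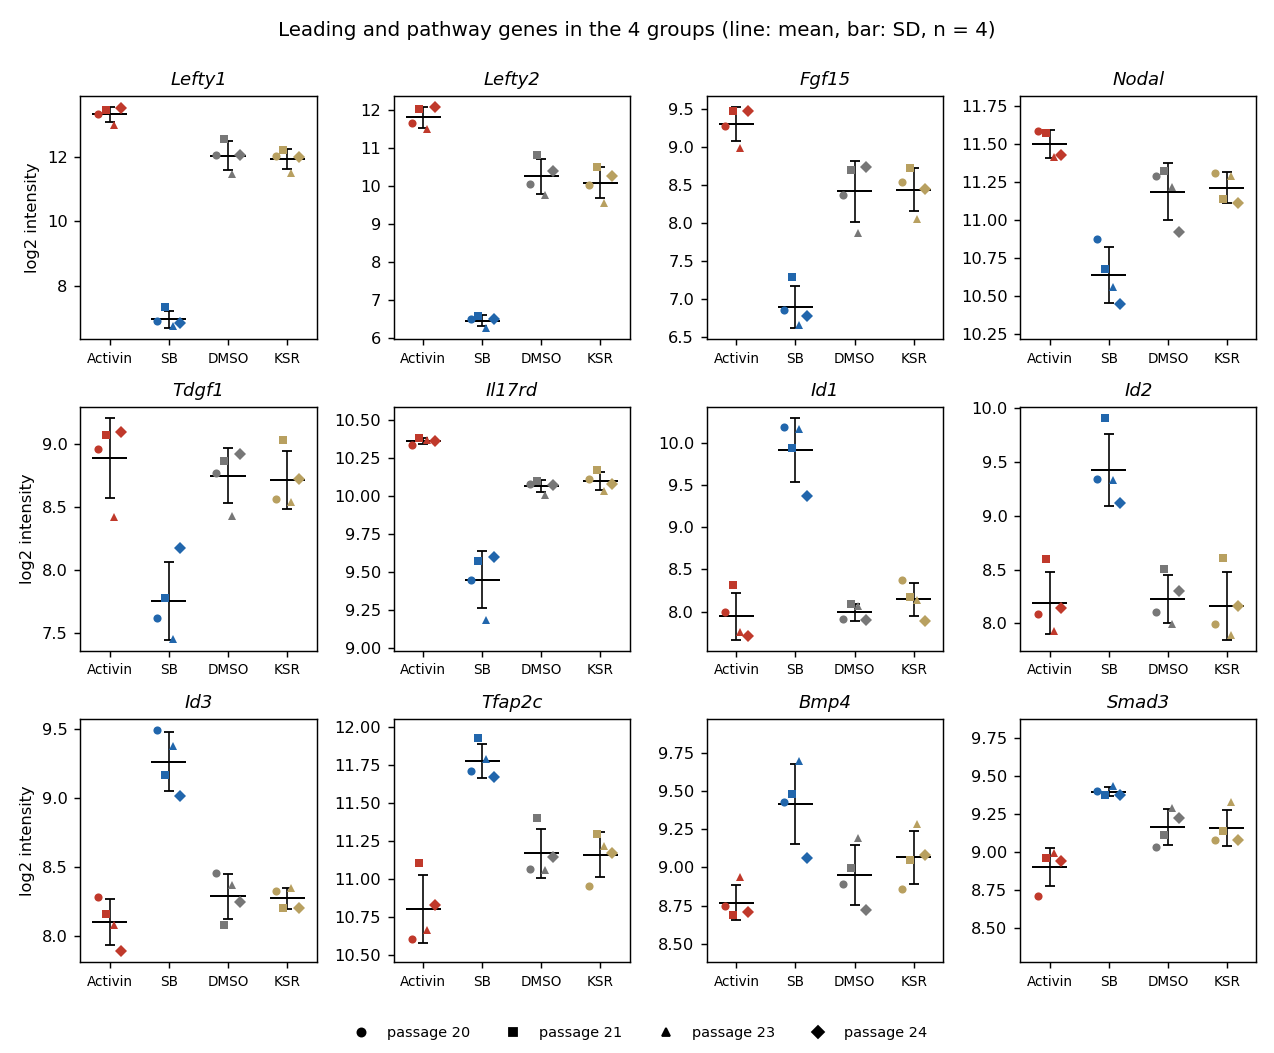
Log2 intensity (y axis) of 12 leading and pathway genes in the 4 Activin, 4 SB, 4 DMSO and 4 KSR arrays; each marker shape is a passage, horizontal lines are means and bars are SDs. Lefty1 and Lefty2 were near the background only with SB, Id1 and Id2 stood apart only with SB, and Smad3 was graded, with the midpoint at 0.47 and 0.48.

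Of 14 measured Nodal targets, 8 were higher with Activin, 0 were lower and 6 did not pass, with a median difference of 0.55, so that 57.1% were higher, against 1.13% of all genes. The list was chosen with earlier results of these data known, and the authors had already named Fgf15 and Spsb1 as co-regulated targets, so this share is no independent support. Lefty1, Lefty2, Pmepa1, Ski, Nodal and Tdgf1 were also counted in the lists above. Fgf15, a fibroblast growth factor gene, was at 9.28, 9.48, 8.99 and 9.48 with Activin and 6.86, 7.30, 6.67 and 6.78 with SB, against 8.37, 8.70, 7.88 and 8.74 with DMSO and 8.54, 8.72, 8.06 and 8.46 in KSR medium. The order Activin, midpoint, SB held at all 4 passages, and the difference was 5.3-fold (log2 difference 2.41, SE 0.10, adjusted p = 5.06e-13), or 4.35-fold with the 3 SB arrays below background raised. Spsb1, which encodes a SOCS-box adaptor, was 2.54-fold higher, at 8.89 ± 0.15 against 7.55 ± 0.13 with SB (log2 difference 1.35, SE 0.07, adjusted p = 4.34e-11). Its midpoint places of 0.57 for DMSO and 0.60 for KSR medium were closer to the middle than those of Lefty1. Trh, the precursor gene of thyrotropin-releasing hormone, was 3.29-fold higher, at 13.32 ± 0.53 against 11.60 ± 0.44 with SB (log2 difference 1.72, SE 0.11, adjusted p = 2.54e-09). Its level differed between passages in both groups, and the difference was 1.55 to 1.86 within each.

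Other genes with large rises were Tmem63a, which lies near the Lefty genes and encodes a membrane channel protein (at least 2.36-fold), the zinc finger gene Zfp819 (2.7-fold), the chondroitin sulfotransferase gene Chst15 (at least 1.87-fold), the Eph receptor gene Epha2 (2.23-fold), the adaptor gene Bcar3 (2.18-fold), Plekha2, a phosphoinositide-binding protein gene (2.17-fold), the double homeobox gene Duxbl1 (2.17-fold, with 1 SB array above background), the membrane-anchored protease gene Mmp25 (at least 1.37-fold) and the amino acid transporter gene Slc7a7 (2.07-fold). Genes with the largest differences were named among those whose groups did not overlap, so the lack of overlap in them was set by that choice. Of the other 3 probes for Duxbl1, 2 were also higher and 1, which did not pass, had a difference of -0.11. Chst15 had the midpoint near the middle, at places of 0.46 for DMSO and 0.53 for KSR medium, and Mmp25 had it near Activin, at 0.81 for DMSO and 0.81 for KSR medium.

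The Id genes, which encode inhibitors of basic helix-loop-helix factors, led the genes that were lower with Activin. Id1 was at 7.99, 8.32, 7.76 and 7.72 with Activin and 10.19, 9.94, 10.16 and 9.37 with SB, against 7.92, 8.09, 8.06 and 7.90 with DMSO and 8.38, 8.17, 8.14 and 7.89 in KSR medium. The SB arrays stood alone, and the Activin arrays overlapped with the DMSO and KSR arrays. Id1 was 3.91-fold lower with Activin (log2 difference -1.97, SE 0.12, adjusted p = 4.68e-10), Id2 2.35-fold lower (log2 difference -1.24, SE 0.09, adjusted p = 8.67e-09) and Id3 2.23-fold lower (log2 difference -1.16, SE 0.08, adjusted p = 8.67e-09). The place of DMSO was 0.98, 0.97 and 0.84 for Id1, Id2 and Id3, so that nearly the whole distance between the ends lay on the side of SB. Bmp4, a BMP ligand gene, was at 8.74, 8.68, 8.94 and 8.71 with Activin and 9.43, 9.48, 9.70 and 9.06 with SB. No Activin array reached the lowest SB array, and Bmp4 was 1.57-fold lower (log2 difference -0.65, SE 0.09, adjusted p = 6.83e-05). Of 15 measured BMP targets, 5 were lower with Activin (Id1, Id2, Id3, Gata2 and Bmp4), 1 was higher (Hey1, log2 difference 0.51, SE 0.10, adjusted p = 0.00798) and 9 did not pass, with a median of -0.04. Of this list 40% passed, against 2.17% of all genes, but the authors had already named Id1, Id2 and Id3 as raised by SB in these data. Hey1, a Notch and BMP target, was above background on 1 of 4 Activin arrays and 0 of 4 SB arrays, and its call was lost in 7 of 24 alternatives, among them without Activin replicate 2, without SB replicate 3 and without passage.

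Of 21 measured trophectoderm and placental genes, 5 were lower with Activin, 1 was higher and 15 did not pass (median -0.07), so that 28.6% passed, against 2.17% of all genes. The authors had already named Gata3, Tfap2c and Igf2 as raised by SB in these data, so this share is no independent support. Tfap2c, a transcription factor gene of the early trophectoderm, was at 10.61, 11.11, 10.67 and 10.83 with Activin and 11.71, 11.93, 11.79 and 11.68 with SB, against 11.07, 11.41, 11.06 and 11.15 with DMSO and 10.96, 11.30, 11.22 and 11.17 in KSR medium. Every SB array lay above the arrays of the other groups, and Tfap2c was 1.96-fold lower with Activin (log2 difference -0.97, SE 0.08, adjusted p = 5.39e-08), at midpoint places of 0.62 for DMSO and 0.63 for KSR medium. Igf2, an imprinted growth factor gene, was 1.75-fold lower (log2 difference -0.81, SE 0.08, adjusted p = 6.66e-07), and its adjusted p was 0.0452 without passage. Gata3, a further trophectoderm factor gene, was above background on all 4 SB arrays and on no Activin, DMSO or KSR array, and was at least 1.24-fold lower with Activin (log2 difference -0.62, SE 0.08, adjusted p = 8.03e-05). Gata2 was likewise above background on the 4 SB arrays alone, at least 1.08-fold lower (log2 difference -0.47, SE 0.09, adjusted p = 0.00279), a call lost without normexp. Dlx3 was above background on 2 of 4 SB arrays and on no Activin array (log2 difference -0.33, SE 0.07, adjusted p = 0.0177), and its call was lost in 11 alternatives. Cdh3, the gene of placental cadherin, was the member that was higher with Activin (log2 difference 0.40, SE 0.08, adjusted p = 0.00811), a call lost in 4 alternatives, among them without passage (adjusted p = 0.123) and without Activin replicate 3. Cdx2, which marks the trophectoderm lineage, had a difference of -0.19 and did not pass (adjusted p = 0.253), and Hand1 and Elf5 were above background on none of the 8 arrays. The summed intensity of 5 trophectoderm markers was 590 to 635 with Activin and 639 to 791 with SB, and its part in these differences was not tested.

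Among the other large falls, Slc30a2, a zinc exporter gene, was at 7.62, 7.53, 7.80 and 7.59 with Activin and 9.04, 8.72, 8.89 and 8.51 with SB. The metallothionein gene Mt1, whose product binds zinc and other metals, was at 12.56, 11.52, 12.30 and 12.30 with Activin and 13.29, 13.40, 13.19 and 12.93 with SB. For both genes the groups did not overlap, with a 2.23-fold difference for Slc30a2 (log2 difference -1.16, SE 0.08, adjusted p = 1.53e-08) and a 2.04-fold one for Mt1 (log2 difference -1.03, SE 0.14, adjusted p = 6.74e-05), whose Activin array of passage 21 was the lowest of all 16. Stra8, a meiotic entry gene that retinoic acid induces, was at 9.89 ± 0.11 with Activin against 10.86 ± 0.07 with SB, 1.96-fold lower (log2 difference -0.97, SE 0.08, adjusted p = 1.87e-07). The complement inhibitor gene Serping1 was at least 1.5-fold lower and above background on the SB and DMSO arrays only. Ceacam1 (cell adhesion), Akr1b8 (aldo-keto reductase), Ramp2 (receptor activity-modifying protein), Dpp4 (dipeptidyl peptidase), Ror2 (a Wnt receptor kinase) and Nr6a1 (an orphan nuclear receptor that represses Pou5f1) were 1.61- to 1.76-fold lower.

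Of 11 measured core pluripotency genes, 1 was higher (Dppa2, log2 difference 0.32), 1 was lower (Lin28a, log2 difference -0.43) and 9 did not pass, with a median of 0.03 (18.2% passed, against 2.17% of all genes). Pou5f1 was at 13.16, 13.07, 13.04 and 13.02 with Activin and 12.86, 12.76, 12.81 and 12.88 with SB. Its groups did not overlap, but the difference was 0.25 (SE 0.08, adjusted p = 0.206), and it did not pass. Nanog differed by 0.31 (SE 0.09, adjusted p = 0.11) and Sox2 by -0.01 (SE 0.10, adjusted p = 0.986), with overlapping groups. Of 14 naive-state genes, 3 were lower with Activin, Klf2, Tfcp2l1 and Nr5a2, and 1 was higher, Tcl1 (28.6% passed). Klf2 was at 11.48, 11.70, 11.26 and 11.46 with Activin and 12.11, 12.28, 11.92 and 12.10 with SB, 1.54-fold lower with Activin (log2 difference -0.63, SE 0.07, adjusted p = 7.32e-06) with differences of -0.66 to -0.58 at the single passages. The calls of Tfcp2l1, Nr5a2, Tcl1 and Dppa2 were lost in 10 to 15 of 24 alternatives, among them the model without passage.

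Of 11 post-implantation epiblast genes, Fgf15 and Fgf5 were higher with Activin and 0 were lower (median 0.16), so that 18.2% passed, against 2.17% of all genes. Fgf5, a growth factor gene that marks the epiblast after implantation, was at 7.75, 7.64, 7.68 and 7.88 with Activin and 6.72, 6.56, 6.35 and 7.14 with SB. It was above background on all 4 Activin arrays and on 1 SB array, and the difference was 2.06-fold (log2 difference 1.04, SE 0.09, adjusted p = 1.95e-07), or 1.5-fold with the 3 dim SB arrays raised. Of 13 primitive streak and mesendoderm genes only Fgf8 passed (7.69% of the list, log2 difference 0.56, SE 0.10, adjusted p = 0.00266). It was above background on no array of either end, so no fold is given. The call of Fgf8 was lost in 3 alternatives, and with the authors' normalized intensities its difference was 0.01. Mixl1, an early mesendoderm factor gene, was above background on no array either, and Gsc was above background on 1 array of each end. Among 9 definitive endoderm genes Trh and Chst15 were higher (22.2% passed) and 7 did not pass. The authors had already named Chst15 as raised by Activin in these data. Only 3 of the 9 had a positive difference, and the median was -0.03. Of 14 primitive endoderm genes Pdgfra was lower (log2 difference -0.33, SE 0.08, adjusted p = 0.0484) and 13 did not pass (median -0.07, 7.14% passed). The call of Pdgfra lay closest to the threshold among the named genes, its groups overlapped, and it was lost in 19 alternatives. Of 10 neuroectoderm genes 0 passed, in a list short enough to hold 0 at the share of all genes.

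The feedback genes of FGF and ERK signalling, the pathway that drives ES cells out of the naive state, went both ways: of 16 measured, 4 were higher with Activin (Il17rd, Epha2, Etv1 and Dusp6), 1 was lower (Dusp4) and 11 did not pass, with a median of 0.00. Of this list 31.2% passed, against 2.17% of all genes. Il17rd, which encodes an FGF receptor antagonist, was at 10.34, 10.38, 10.37 and 10.36 with Activin and 9.45, 9.57, 9.19 and 9.60 with SB, against 10.08, 10.10, 10.01 and 10.07 with DMSO and 10.11, 10.17, 10.03 and 10.08 in KSR medium. The Activin arrays were almost identical, and all of them lay above every array of the other groups. The difference was 1.88-fold (log2 difference 0.91, SE 0.08, adjusted p = 1.34e-07). Dusp4, a gene of a nuclear MAP kinase phosphatase, was at 9.98, 9.91, 9.99 and 9.80 with Activin and 10.79, 10.60, 10.52 and 10.26 with SB, 1.54-fold lower with Activin (log2 difference -0.62, SE 0.07, adjusted p = 1.87e-05). Dusp6, a gene of a cytoplasmic ERK phosphatase, was higher with Activin by 0.33 (adjusted p = 0.0355), a call lost in 16 alternatives.

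Among 14 G1 cyclins and cell cycle inhibitors, Ccnd2 (cyclin D2) was 1.61-fold higher with Activin, at 10.57 ± 0.26 against 9.88 ± 0.27 with SB (log2 difference 0.69, SE 0.08, adjusted p = 2.43e-05), and the imprinted inhibitor gene Cdkn1c 1.27-fold higher (log2 difference 0.35, SE 0.08, adjusted p = 0.0139), a call lost in 9 of 24 alternatives, among them without passage (adjusted p = 0.0537) and without single arrays (Activin replicate 1, Activin replicate 4 or SB replicate 4). The midpoint of Ccnd2 lay with Activin, at places of 0.89 for DMSO and 0.97 for KSR medium. Of these 14 genes 14.3% passed, against 2.17% of all genes. Of 12 genes of S phase and mitosis, 0 passed, and likewise 0 of 9 p53 targets, 0 of 12 genes of the integrated stress response, 0 of 10 of cholesterol synthesis and 0 of 9 Wnt targets. At the 2.17% of all genes that passed, lists of this length can hold 0 calls without differing from the rest. Of 8 retinoid response genes, Stra8, Stra6 and Crabp2 were lower with Activin and 0 were higher (median -0.20), so that 37.5% passed, against 2.17% of all genes. Stra6, a retinol transporter gene, did not exceed the background on any array of either end, and Crabp2, a retinoic acid-binding protein gene, did so on 3 of 4 SB arrays and no Activin array. The call of Crabp2 was lost in 11 alternatives, among them without passage (adjusted p = 0.0586), and that of Stra6 in 7, with a difference of -0.11 in the authors' normalized intensities. Slc2a1, the glucose transporter gene, and Vegfa, an angiogenic factor gene, were lower among 13 genes of glycolysis and hypoxia (15.4% passed). The log2 difference was -0.42 for Slc2a1 (SE 0.09, adjusted p = 0.0117) and -0.42 for Vegfa (SE 0.09, adjusted p = 0.0103). The call of Slc2a1 was lost in 12 alternatives and that of Vegfa in 11, both without passage and with the authors' normalized intensities among them. The reference genes did not pass (0 of 9), with differences of -0.09 for Actb and -0.02 for Gapdh.

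**Figure D3:**
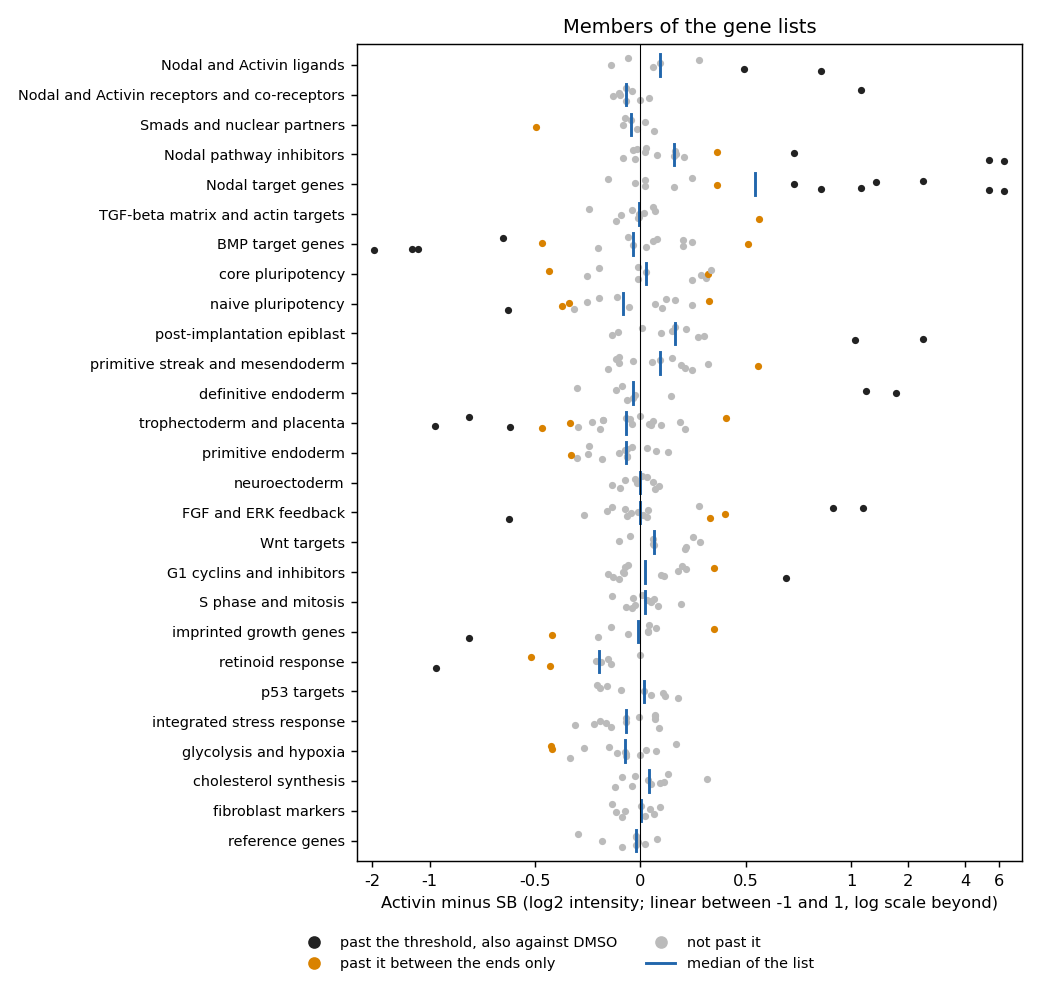
Activin minus SB (x axis, log2 intensity, linear between -1 and 1 and on a log scale beyond) for each measured member of the gene lists (rows); black points passed and also passed in a comparison with DMSO, orange points passed between the ends only, grey points did not pass, and blue bars are list medians. The Nodal targets had a median of 0.55, and each of the other 26 lists had a median between -0.20 and 0.16.

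Most calls between the ends had no call against the midpoint. Of the 438 probes, 302 (68.95%) passed for Activin minus SB but neither for Activin minus DMSO nor for SB minus DMSO (1.23% of all probes), 149 higher with Activin and 153 lower. A further 127 also passed for SB minus DMSO alone, 1 also for Activin minus DMSO alone and 8 in all 3 comparisons. The 302 probes named 240 genes (1.5% of all genes), 111 higher and 129 lower. Of the 302 probes, 21 were above background on no Activin and no SB array, against 1 of the 136 that also passed against DMSO. A p over the threshold against DMSO does not show that a level equalled that of DMSO: 245 of the 302 had an unadjusted p under 0.05 for SB minus DMSO (8.27% of all probes did), 133 for Activin minus DMSO (5.31%), 78 for both and only 2 for neither. The adjusted p nearest to the threshold was 0.0499 among the 302 probes, and 0.0508 among the probes left out. Without passage 146 probes met the same rule, 99 of them among the 302, and without the arrays of passage 20, of passage 23, of Activin replicate 1 or of Activin replicate 3 the counts were 195, 186, 196 and 188.

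These were small differences, and their sizes come from the comparison that chose the probes. Their median size was 0.40 log2 units (1.32-fold, range 0.27 to 0.89) and 18 exceeded 1.5-fold, while the 136 probes that also passed against DMSO had a median of 0.69 (1.62-fold). In 296 of the 302 the sign was the same at 4 of 4 passages (18.2% of all probes), and in 214 the Activin and SB arrays did not overlap (4.58% of all probes). These shares too come from the values that chose the probes. The DMSO mean lay between the ends for 299 of the 302 probes, at a median place of 0.61 (quartiles 0.49 and 0.72). No comparison with KSR medium was part of the rule, but the KSR arrays entered the model's estimate of the spread. The KSR mean lay between the ends for 296, at a median place of 0.61 (quartiles 0.48 and 0.75). The ends of this scale were chosen to lie apart, which favours a place between them for either midpoint group. The median step between Activin and DMSO was 0.17, and that between DMSO and SB 0.26, against a median SE of 0.08. For the 136 probes that also passed against DMSO the median places were 0.72 for DMSO and 0.69 for KSR. The DMSO culture lay between its Activin and SB partners at 4 of 4 passages for 119 of the 302 probes (39.4%, against 1.26% of all probes). The KSR culture did so for 95 (31.5%, against 1.02%). For the 136 probes also called against DMSO, whose differences between the ends were larger, these shares were 61% and 63.2%. The Activin, SB and DMSO values that give this order also chose the probes. Against KSR medium, 31 of the 302 passed for SB (0.646% of all probes did) and 0 for Activin (0.0691%). With the mean of the DMSO and KSR arrays as the midpoint, 224 of the 302 still passed between the ends only.

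**Figure D4:**
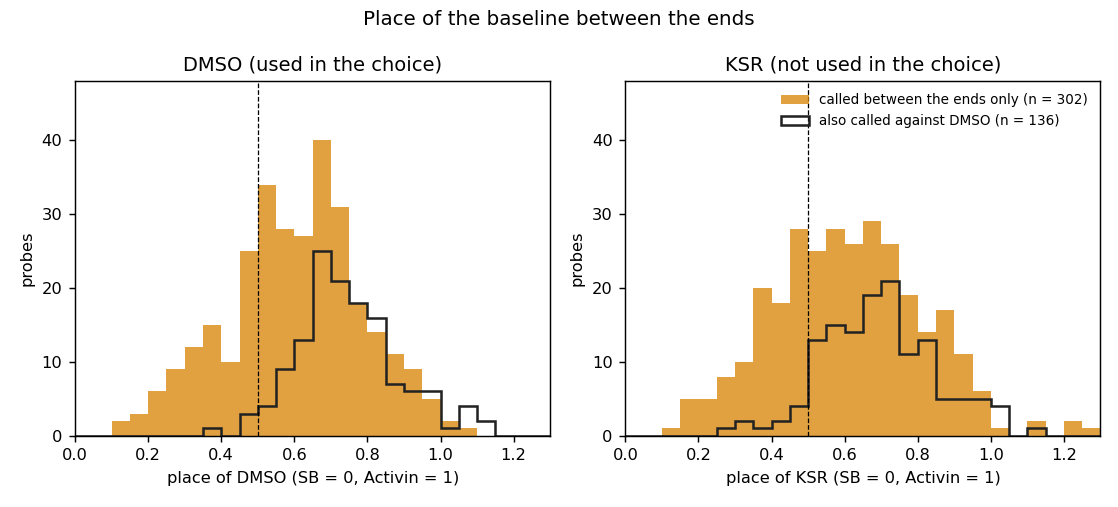
Histograms of the place of the DMSO mean (left) and the KSR mean (right) between the ends, with the SB mean at 0 and the Activin mean at 1; the y axis counts probes. Orange bars are the 302 probes called between the ends only and black outlines the 136 also called against DMSO, with medians of 0.61 and 0.72 for DMSO and of 0.61 and 0.69 for KSR.

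Among the genes called between the ends only, Notch3, a Notch receptor gene, was at 8.68, 8.88, 8.68 and 8.73 with Activin and 8.06, 8.36, 7.91 and 7.76 with SB, and at 8.37, 8.78, 8.16 and 8.56 with DMSO and 8.52, 8.36, 8.41 and 8.75 in KSR medium. The ends did not overlap, and the midpoint arrays spread across the space between them and touched both. Notch3 was 1.65-fold higher with Activin (log2 difference 0.72, SE 0.11, adjusted p = 0.000463), at places of 0.62 for DMSO and 0.68 for KSR medium. Rnd3 was at 8.96, 9.20, 9.10 and 8.85 with Activin and 8.35, 8.38, 8.37 and 8.54 with SB, against 8.55, 8.77, 8.85 and 8.70 with DMSO and 8.72, 8.50, 8.79 and 8.94 in KSR medium. It was 1.54-fold higher with Activin (log2 difference 0.62, SE 0.10, adjusted p = 0.000472), and the midpoint lay in the middle, at 0.50 for DMSO and 0.53 for KSR medium. Ppp1r1a, the gene of an inhibitor of protein phosphatase, was at 10.26, 10.18, 10.01 and 10.19 with Activin and 9.49, 9.64, 9.60 and 9.38 with SB, against 9.82, 10.03, 9.88 and 9.88 with DMSO and 9.72, 10.03, 9.76 and 10.10 in KSR medium. At every passage its DMSO and its KSR culture lay between the ends, and the difference was 1.55-fold (log2 difference 0.64, SE 0.09, adjusted p = 0.000123).

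Ly6e, a gene of a lipid-anchored surface protein, was 1.49-fold higher with Activin, at 10.93 ± 0.15 against 10.35 ± 0.20 with SB (log2 difference 0.58, SE 0.08, adjusted p = 0.000161). Ccn2, a matricellular protein gene and a common TGFβ target, was at 10.21, 10.42, 10.47 and 10.30 with Activin and 9.87, 9.77, 9.75 and 9.76 with SB. Its groups did not overlap, and it was 1.48-fold higher (log2 difference 0.56, SE 0.08, adjusted p = 0.000301), as the 1 of 11 measured TGFβ matrix and actin targets that passed (9.09%, against 2.17% of all genes). The carbonic anhydrase gene Car4 was 1.48-fold higher (log2 difference 0.57, SE 0.08, adjusted p = 0.000262), with the midpoint nearer to SB, at 0.32 for DMSO and 0.44 for KSR medium. Cidea, a lipid droplet protein gene, had the largest difference of these genes (log2 difference 0.89, SE 0.13, adjusted p = 0.000207), and it was above background on all 4 Activin arrays and 2 SB arrays (1.76-fold with the other 2 raised). Its DMSO and KSR places differed, at 0.37 and 0.67. Etv1, an ETS factor gene downstream of ERK, was 1.32-fold higher (log2 difference 0.40, SE 0.08, adjusted p = 0.00815), a call lost without passage 23, without passage 24 and without Activin replicate 4. Thnsl2, B3galnt1, Rasd2, Bhlhe40 (a circadian repressor gene) and Slc40a1 (the iron exporter gene) were 1.49- to 1.53-fold higher. The call of Bhlhe40 was lost in 12 of 24 alternatives and that of Slc40a1 in 3, both without passage and with the authors' normalized intensities among them. The call of Thnsl2 was lost with the authors' normalized intensities and without normexp. Dusp26, Kirrel2, Col8a2 and the gene BC048679 were above background on no SB array, and at least 1.06-fold (Dusp26) and 1.02-fold (Kirrel2) higher. Col8a2, with 1 Activin array above background, and BC048679, with none, give no fold. The calls of Dusp26, Col8a2 and BC048679 were also lost with the authors' normalized intensities and without normexp. In the authors' normalized intensities the difference of BC048679 was 0.0089.

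On the side of SB, Ephx2, the gene of soluble epoxide hydrolase, was at 8.07, 8.57, 8.03 and 8.29 with Activin and 8.67, 9.02, 8.73 and 8.85 with SB, against 8.55, 8.55, 8.53 and 8.52 with DMSO and 8.33, 8.71, 8.41 and 8.59 in KSR medium. The 4 DMSO arrays were almost level and lay below every SB array, the ends did not overlap, and Ephx2 was 1.49-fold lower with Activin (log2 difference -0.58, SE 0.08, adjusted p = 0.000164), at places of 0.49 for DMSO and 0.53 for KSR medium. Alpk3, an alpha-kinase gene, was at 8.39, 8.06, 8.41 and 8.15 with Activin and 8.82, 8.84, 8.90 and 8.69 with SB, 1.48-fold lower (log2 difference -0.56, SE 0.08, adjusted p = 9.62e-05). The nucleoside transporter gene Slc28a1 was at 8.20, 8.13, 8.19 and 7.78 with Activin and 8.89, 8.61, 8.66 and 8.38 with SB. Its cultures were lowest at passage 24 in both groups, the ends did not overlap, and it was 1.47-fold lower (log2 difference -0.56, SE 0.07, adjusted p = 7.68e-05). Alpk3 and Slc28a1 both had the DMSO and KSR cultures between the ends at every passage. Liph, a phospholipase gene, was 1.44-fold lower, at 9.59 ± 0.09 with Activin against 10.12 ± 0.17 with SB (log2 difference -0.52, SE 0.08, adjusted p = 0.000751). Lin28a, the gene of a microRNA-binding protein, was 1.35-fold lower (log2 difference -0.43, SE 0.09, adjusted p = 0.00597), with DMSO nearer to Activin and KSR nearer to SB (places of 0.70 for DMSO and 0.40 for KSR medium). Its call was lost without passage 23, without passage 24 and with the authors' normalized intensities. Mest, an imprinted gene, was 1.34-fold lower (log2 difference -0.42, SE 0.08, adjusted p = 0.00273) and was lost without passage in the model and without the arrays of passage 20.

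The metallothionein gene Mt2 (1.57-fold lower), the epithelial ETS factor gene Elf3 (1.52-fold), the aldehyde dehydrogenase gene Aldh3a1 (1.51-fold), Grasp (1.49-fold), the serine protease gene Tmprss5 (1.48-fold), Aoah (1.45-fold), the calcium-binding protein gene Necab2 (1.45-fold), Olig3, a neural factor gene (1.44-fold), Jdp2, an AP-1 repressor gene (1.44-fold), the transglutaminase gene Tgm1 (1.44-fold) and Naprt, a gene of NAD synthesis (1.44-fold), completed the larger falls. Mt2 lay in the same direction as Mt1, with overlapping groups. The call of Mt2 was lost in 5 alternatives, among them without passage 20 and without passage 21. Olig3 was above background on 1 of 4 Activin arrays and Tmprss5 on 2, and with their dim Activin arrays raised the folds were 1.24 for Olig3 and 1.45 for Tmprss5. The difference of Olig3 was -1.33 without normexp. The calls of Mt2, Elf3, Tmprss5, Grasp and Jdp2 were lost with the authors' normalized intensities, and without passage in the model the calls of Grasp, Aoah, Olig3, Jdp2, Tgm1 and Naprt were lost. Grasp lost its call in 9 of 24 alternatives and Jdp2 in 4.

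**Figure D5:**
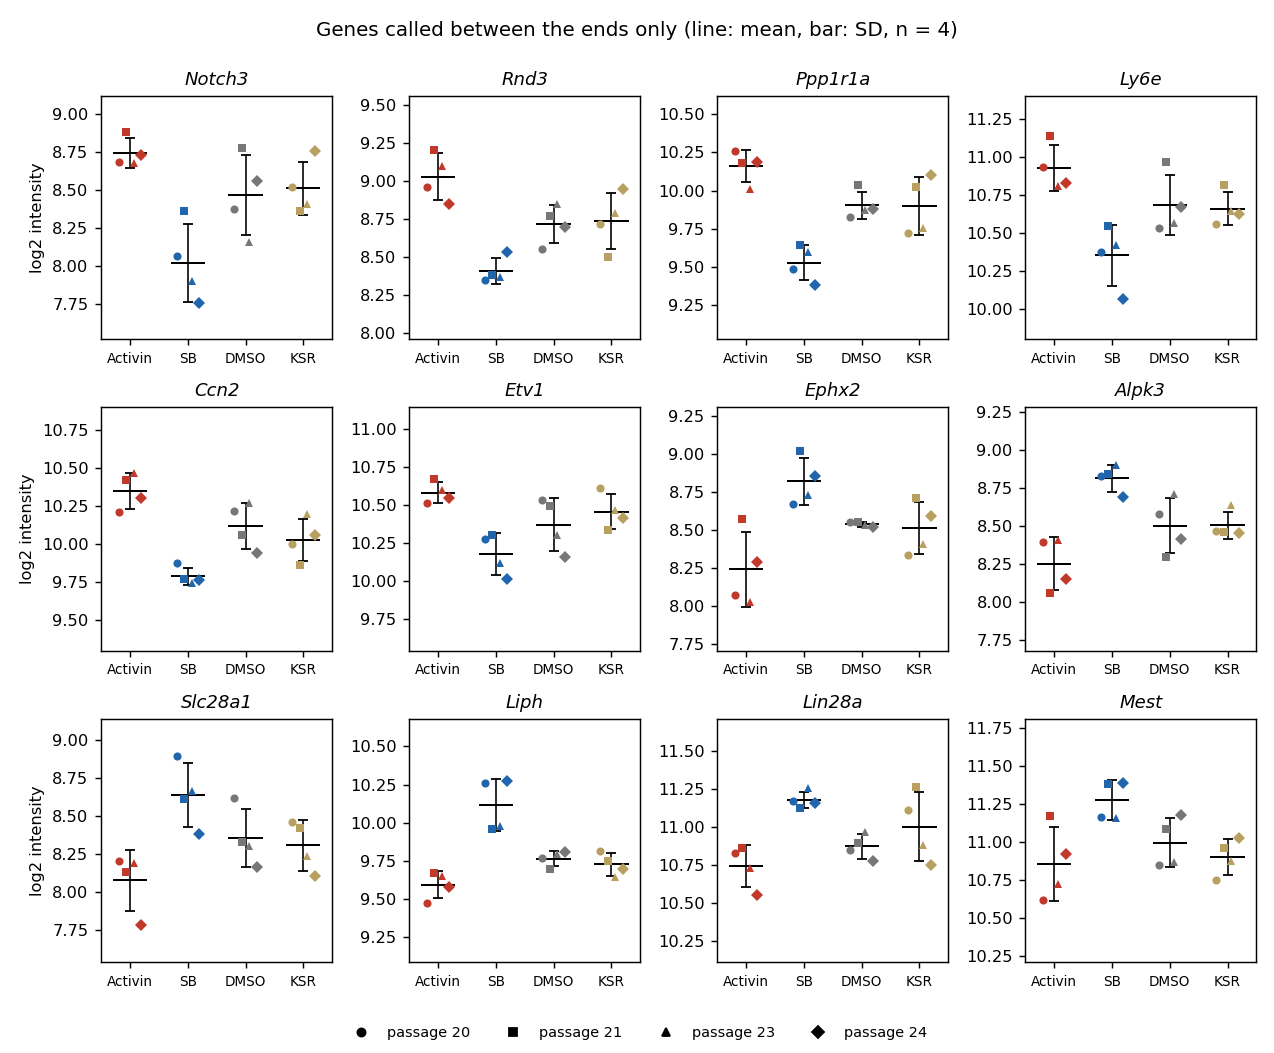
Log2 intensity (y axis) of 12 genes called between the ends only, in the 4 Activin, 4 SB, 4 DMSO and 4 KSR arrays; each marker shape is a passage, horizontal lines are means and bars are SDs. In each gene the DMSO and KSR means lay between the Activin and SB means, as for Rnd3 at places of 0.50 and 0.53.

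Promoters of 4 genes that differed between the ends are shown to set both kinds of response beside each other: Trh and Id3 also passed against DMSO, on opposite sides, and Notch3 and Rnd3 passed between the ends only. They were picked because they hold CAGAC or its reverse complement GTCTG, the core letters of the Smad-binding element. Sequences and positions are RefSeq's on GRCm38.p6, 250 bases before to 50 after the gene start, 5′ to 3′ on the strand of the gene, with these letters in capitals. The windows are chr6:92244601-92244900 (minus strand) for Trh, chr4:136143572-136143871 (plus strand) for Id3, chr17:32166841-32167140 (minus strand) for Notch3 and chr2:51149062-51149361 (minus strand) for Rnd3.
Trh: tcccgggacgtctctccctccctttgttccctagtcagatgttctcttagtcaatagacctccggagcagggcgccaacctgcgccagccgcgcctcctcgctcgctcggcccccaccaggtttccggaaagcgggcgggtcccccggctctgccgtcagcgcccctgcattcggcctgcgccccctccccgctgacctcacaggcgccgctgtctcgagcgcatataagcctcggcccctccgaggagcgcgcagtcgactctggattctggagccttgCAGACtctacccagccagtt
Id3: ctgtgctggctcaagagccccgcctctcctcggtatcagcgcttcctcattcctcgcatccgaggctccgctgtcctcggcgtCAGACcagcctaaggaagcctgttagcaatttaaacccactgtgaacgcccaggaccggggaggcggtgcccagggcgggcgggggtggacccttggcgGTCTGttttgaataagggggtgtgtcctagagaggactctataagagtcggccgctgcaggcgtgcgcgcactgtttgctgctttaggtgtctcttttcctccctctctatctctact
Notch3: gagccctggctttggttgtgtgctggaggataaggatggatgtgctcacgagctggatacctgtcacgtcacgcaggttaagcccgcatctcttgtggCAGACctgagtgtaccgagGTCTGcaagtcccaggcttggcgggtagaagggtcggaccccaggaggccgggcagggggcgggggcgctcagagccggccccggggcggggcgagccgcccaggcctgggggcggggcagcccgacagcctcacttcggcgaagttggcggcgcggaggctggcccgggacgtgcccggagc
Rnd3: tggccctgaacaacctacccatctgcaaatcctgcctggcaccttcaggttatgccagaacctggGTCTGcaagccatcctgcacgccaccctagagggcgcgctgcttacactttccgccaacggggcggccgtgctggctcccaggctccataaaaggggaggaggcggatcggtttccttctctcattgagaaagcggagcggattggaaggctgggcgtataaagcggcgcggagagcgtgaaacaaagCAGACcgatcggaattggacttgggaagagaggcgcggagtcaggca
Trh held the motif 1 time and the other 3 promoters held it 2 times each, once on each strand. Such short letters are common: 49.7% of 27025 promoters of the same length held them, and 48.5% of the 12848 found for genes on the array. The share was 45.5% for the genes higher with Activin (60 of 132 with a promoter), 40.5% for those lower (53 of 131), 47.5% for those higher between the ends only (38 of 80) and 43.8% for those lower between the ends only (46 of 105). GGCGCC, letters that the Smads of the BMP pathway are known to bind, were searched on both strands too; the end of one motif can share a letter with the other. They were in 14.4% of the promoters of the genes higher with Activin and 22.9% of those of the genes lower, against 16.8% for genes on the array. A match is a description of these letters and not a site.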

How the data were processed

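The authors hybridised RNA of 16 cultures to Illumina MouseRef-8 arrays and read them with BeadStudio (version not given in the sources used here), and the deposited values are background-subtracted intensities per probe before scaling between arrays, of which 26.8% to 28.7% per array were below 0. From these, background was corrected with normexp (offset 50) and arrays were quantile-normalized and log2-transformed in limma 3.58.1 (R 4.3.3). A linear model of the 4 groups with passage as a block was fitted to 24606 probes over 16 arrays (9 residual degrees of freedom). It used eBayes and Benjamini-Hochberg adjustment, at a threshold of 0.05. In simulated data with changes set only in brighter probes, it recovered 81 of 100 log2 differences of 0.5 and 100 of 100 of 1. It called 9 unchanged probes. Dim probes and differences as small as 0.40, the median between the ends only, were not covered. The authors' normalized intensities, with 53.1% to 59.9% of values at a floor of 40, served as an alternative.

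The replicate number is the passage in the labels. Deviations of arrays with the same number correlated at 0.0976 to 0.325 (24 pairs), those with different numbers at -0.238 to 0.0995 (72 pairs), and all 16 arrays were closest to their own number.

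Platform annotation gave 20980 probes 1 symbol, 1 probe several and 3625 none, for 15967 genes, each represented by its brightest probe over the 16 arrays. Named genes were the 15 largest rises and 15 largest falls among genes that passed without overlap of the ends, the 15 largest of each among genes called between the ends only, list members that passed, and a set of pathway and marker genes; the members and lists were chosen with earlier results of these data known. The dimmest level above background on an array replaced dimmer values in each lower bound of a fold. The number of arrays limits the precision. Alternatives were no passage term, only the Activin and SB arrays, other background corrections and scaling, a filter on dim probes, trended and robust eBayes, other baselines, and leaving out single arrays or passages.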

Additional observations from a re-analysis of the deposited data

Results flagged for a closer look

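In 10 of 208 groups of 4 arrays (the Activin and the SB group of 104 named genes) 1 array stood apart from the other 3 beyond Dixon's limit, and chance flags about 1 in 20 groups. Values are log2 intensities. Among genes higher with Activin, Duxbl1 was at 8.40 on Activin replicate 4, against 8.19 to 8.20 on the others. Rnd3 was at 8.54 on SB replicate 4, against 8.35 to 8.38, and B3galnt1 at 7.98 on Activin replicate 1, against 8.40 to 8.48. Both arrays lay toward the other end of the gradient, and the calls of Rnd3 and B3galnt1 held in all 24 alternatives. Hey1 was at 7.71 on Activin replicate 2, against 7.04 to 7.13, and its call was lost without that array. Cdkn1c was flagged in both groups, at 11.19 on Activin replicate 2, against 11.45 to 11.47, and at 11.13 on SB replicate 3, against 11.01 to 11.02, and its call was lost in 9 alternatives. Among genes lower with Activin, Tmprss5 was at 8.12 on SB replicate 2, against 7.54 to 7.58, Jdp2 at 8.09 on SB replicate 4, against 7.64 to 7.71, Necab2 at 7.12 on Activin replicate 1, against 7.48 to 7.54, and Stra6 at 6.15 on Activin replicate 2, against 6.52 to 6.56, below background.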

How the results depend on the processing

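The count of calls and the smaller differences depended on the passage term, the number of arrays and the background correction and scaling. Without passage as a block, 221 probes passed in place of 438, with 143 higher and 78 lower (64.7% higher, against 54.8% with the block and 62.8% with median scaling), and 146 passed between the ends only. The count of lower probes was 123 with the authors' normalized intensities, 118 with a normexp offset of 16, and 316 among the 10735 probes above background on 4 or more arrays, of which 629 passed in all. With an unadjusted p of 0.05 or more against DMSO in place of the adjusted p, 2 probes were called between the ends only, and over 1.5-fold with no test 116 probes were called. Leaving out arrays gave 256 to 436 calls, 154 to 242 higher, 102 to 194 lower and 186 to 332 between the ends only. The lowest of each was without passage 23 (replicate 3); without passages 20, 21 and 24, 114, 128 and 129 probes were lower. Of 92 named genes that passed, 57 kept their call in each of the 24 alternatives that tested them and 35 lost it in at least 1: 25 with the authors' normalized intensities, 25 without the arrays of 1 passage, 23 without the passage term and 18 without 1 array. The filter on dim probes removed Kirrel2, Fgf8, Col8a2, BC048679, Dlx3 and Stra6, which were tested in 23 alternatives. All 35 were among the 52 called between the ends only, and none of the 24 alternatives turned a direction. Background correction sets the size of the difference of dim genes, as for Fgf15, at 4.00 without normexp against 2.41.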

Other observations

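Of the 438 probes that passed, 47 had no gene symbol here, 26 higher with Activin and 21 lower, and 30 of them passed between the ends only. The largest was ILMN_1220244, at 10.18, 10.31, 9.96 and 10.62 with Activin and 6.32, 6.12, 6.38 and 6.48 with SB. It was above background on no SB array and at least 8.67-fold higher with Activin (log2 difference 3.94, SE 0.13, adjusted p = 8.42e-15), with midpoint places of 0.62 for DMSO and 0.61 for KSR medium. ILMN_2661386 was 3.09-fold higher (adjusted p = 4.34e-11). Among those lower with Activin, ILMN_1227722 was at least 1.13-fold lower (adjusted p = 2.02e-05), and ILMN_1255416, called between the ends only, was 1.65-fold lower (adjusted p = 3.95e-05).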
